A study of Mus musculus with 15 samples.

Results

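The 6 single knockout lines of the first dataset, FAM3C KO clones 1 to 3 and LIFR KO clones 1 to 3, were taken as 1 group and set against the 4 shPCBP1 lines of the same dataset. These 10 samples are part of a series of 15. The genes described are those in which all 6 knockouts lay on one side of all 4 shPCBP1 lines, that is, in which the highest knockout was below the lowest shPCBP1 line or the reverse. Of 13893 genes listed, the 12621 with a mean of at least 0.5 CPM (counts scaled to the total of the library) over the 10 samples were examined, and 440 of them (3.49%) met this condition, 342 with the knockouts below and 98 with the knockouts above. The condition reads the same values as the comparison, so these counts are a description and carry no test.

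All lines derive from NMuMG, a mouse mammary gland epithelial cell line, and all 10 carry a stable shRNA knockdown of PCBP1. The shPCBP1 group holds the unaltered knockdown line and 3 CT clones, which received Cas9 without a guide. The FAM3C KO clones (genotype FAM3C -/-) and the LIFR KO clones (LIFR -/-) were made in that knockdown line by electroporation of Cas9 with guide pairs and were grown from diluted cells. Each line was sequenced as 1 RNA sample, so a spread between samples is a spread between clones, and the effect of a gene cannot be told apart from what else distinguishes a clone. A FAM3C/LIFR double KO (1 sample) and a second dataset, with 2 NMuMG and 2 shPCBP1 samples, were used as readouts that did not enter the choice of genes. The labels give no treatment for these NMuMG samples, whereas the study describes the controls of this dataset as cells with a scrambled shRNA (shSCR), and which of the 2 holds was not settled here.

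PCBP1 (hnRNP E1) is an RNA-binding protein that holds back the translation of transcripts needed for the epithelial-mesenchymal transition (EMT), and FAM3C, also called ILEI, is a secreted protein whose transcript is among them. LIFR is the receptor for leukemia inhibitory factor, signals together with gp130 (Il6st) through JAK kinases to STAT3, and has been described as a partner of FAM3C. The comparison asks which transcripts differ from shPCBP1 cells in both kinds of knockout.

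The guides that define the knockouts are shown because the pooled group rests on them. Of 8 listed guides, 6 matched transcripts of the 2 genes in GENCODE M21 (GRCm38), each in coding sequence, and the remaining 2 had no match in those transcripts. Which pair made which clone is not given in the sources used here. In Fam3c (transcript Fam3c-203) the matched guides lie at chr6:22339354-22339373 on the minus strand, chr6:22328648-22328667 on the plus strand and chr6:22328568-22328587 on the minus strand. In Lifr (transcript Lifr-201) they lie at chr15:7154439-7154458 on the minus strand, chr15:7154514-7154533 on the plus strand and chr15:7166908-7166927 on the plus strand. Capitals mark the PAM, the bases next to the target that Cas9 requires.
Fam3c exon 4 guide: tgcaaagttggtagtggccgTGG
Fam3c exon 6, first guide: atcccacacttgtacctcggAGG
Fam3c exon 6, second guide: cgtgggacccaagatctgccTGG
Lifr exon 2, first guide: ttattgtctaccatccacgaTGG
Lifr exon 2, second guide: catctgacgatgcatgcaaaCGG
Lifr exon 6 guide: gtaaagataccgttcagcacTGG

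Transcript levels of the 2 targets did not separate the pooled group from shPCBP1 cells. Fam3c was at 54.9, 47.0, 59.4 and 53.3 CPM in CT clones 1 to 3 and the unaltered line, at 26.4, 33.9 and 42.9 CPM in the FAM3C KO clones and at 50.0, 70.1 and 44.5 CPM in the LIFR KO clones. All 3 FAM3C KO clones were thus below every shPCBP1 line, and the LIFR KO clones lay on both sides. Lifr was at 25.8, 34.8, 40.2 and 28.4 CPM in the shPCBP1 lines, at 13.5, 10.5 and 19.2 CPM in the FAM3C KO clones and at 34.9, 29.3 and 14.6 CPM in the LIFR KO clones. Here too only the FAM3C KO clones were all below, and LIFR KO clones 1 and 2 were within the range of shPCBP1 cells. A value summed over a whole gene does not show whether a stretch of coding sequence has been removed, so these levels neither check nor contradict the labels. Pcbp1, the shRNA target shared by all 10 lines, was at 35.2 ± 1.94 CPM (SD, n = 4) in shPCBP1 cells and at 30.9 ± 7.86 CPM (SD, n = 6) in the knockouts. None of the 3 passed in the fit over all genes (limma adjusted p = 0.481, 0.440 and 0.530).

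Library properties moved with part of the pooled group. In LIFR KO clones 2 and 3, and in the double KO, the deviation of a gene fell with its GC content (Spearman rho across genes of -0.736, -0.727 and -0.684, a description across genes that are not independent), against -0.274 to 0.221 in the other 8 libraries. The share of mitochondrially encoded mRNA was 7.16 to 8.58% in those 3 and 3.14 to 4.06% in the others. Low values rose in steps of the lowest value listed in each library, which as the worth of 1 read gives totals of 16031859 to 46901675 reads, and whether the lowest value itself stands for 1 read or for none is not given in the sources used here. Among epithelial genes, Cdh1 was at 308 ± 25.5 CPM (SD, n = 4) in shPCBP1 cells and 306 ± 45.6 CPM (SD, n = 6) in knockouts. Others were low, such as Pkp3 with means of 0.801 and 0.824 CPM. Mesenchymal Vim was at 1356 ± 62.4 CPM (SD, n = 4) and 1214 ± 227 CPM (SD, n = 6). No cell type is read from these levels. In bulk RNA, fewer cells of a kind and less RNA per cell cannot be told apart.

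The knockouts were more often below shPCBP1 cells than above them. The 342 genes below made up 2.71% of the genes tested and the 98 above 0.776%. Among the 342, the median log2 fold change was -0.51, 70 genes differed by at least 1 on the log2 scale and 38 by at least 2, and in 166 the difference was under 0.5. Among the 98, the median was 0.36, 3 differed by at least 1 and 74 by less than 0.5. The median over all tested genes was -0.08. Fold changes here and below are differences of mean log2(CPM + 0.1), and the added 0.1 makes differences in weakly expressed genes look smaller than they are.

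This imbalance depended on scaling. After median-ratio rescaling 240 genes were below and 243 above, after a correction for GC content 308 and 258, and without LIFR KO clones 2 and 3 478 and 258. The correction kept 208 of the 342 and 72 of the 98. Genes below had a median GC content of 54.0% and genes above 45.3%, against 50.7% over all genes, and the part of the GC trend in the choice of genes was not tested beyond these settings. In limma's moderated test over all genes, 31 passed at a Benjamini-Hochberg adjusted p under 0.07, 0.246% of those tested, with 28 lower (0.222%) and 3 higher (0.0238%). All 31 were among the 440. The calls were 25 lower and 3 higher after rescaling and 36 lower and 6 higher after the GC correction, which kept 27 of the 31.

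The number of calls depended on single libraries. It was 11, 13 and 15 without CT clone 1, 2 or 3, 12 without the unaltered line, 16, 18 and 17 without FAM3C KO clone 1, 2 or 3, and 18 without LIFR KO clone 3. The count of genes below was 551 without CT clone 1 and 562 without the unaltered line. The count above was 205, 243, 170 and 156 without CT clone 1, CT clone 3, the unaltered line or FAM3C KO clone 2. Leaving out a library can only keep or raise these 2 counts. Chst11, Ebf1, Foxf1 and Nav3 kept their call in every setting tried for them.

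**Figure D1:**
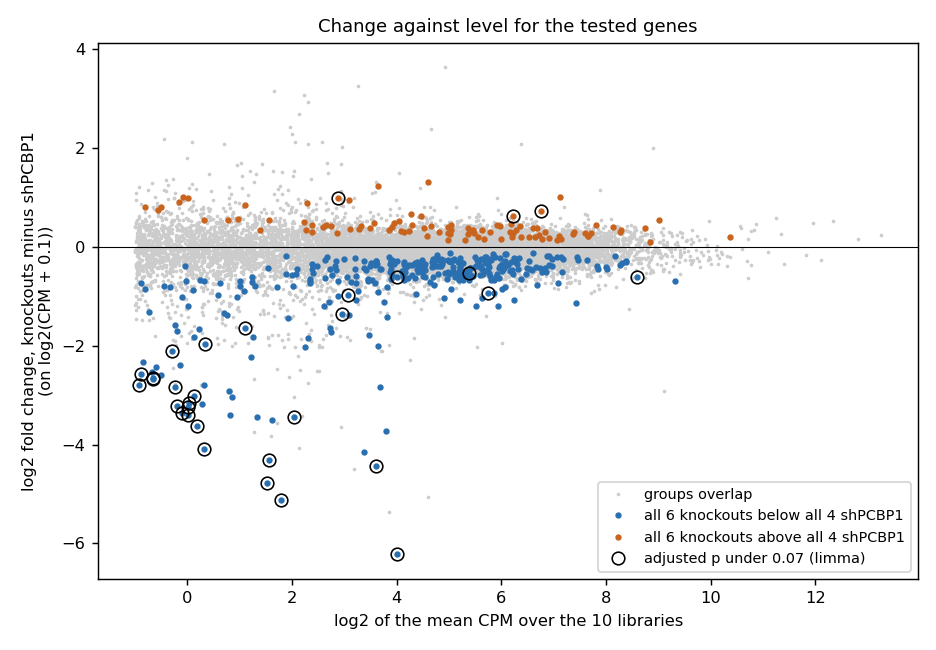
Each point is a tested gene, with the log2 of its mean CPM over the 10 libraries on the x axis and its log2 fold change (knockouts minus shPCBP1, on log2(CPM + 0.1)) on the y axis. Blue marks the 342 genes with all 6 knockouts below, orange the 98 with all 6 above, and black rings the 31 genes past the limma threshold, of which the lower ones reach down to -6.22 (Chst11) and the higher ones up to 0.98 (Zfp109).

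The condition is strict at its edges and passes very small gaps. Ttc12 was just inside, with 1.871 CPM in the highest shPCBP1 line and 1.872 CPM in the lowest knockout, and Irf2bp1 was just inside on the lower side. Rhod and Gpat4 were just outside. At the low end of expression, Fam167a and Ttc36 had means of 0.523 and 0.538 CPM over the 10 libraries and were kept, and Pcdh19 and Thpo, at 0.488 and 0.464 CPM, were not. LIFR KO clone 1 was the knockout nearest to the shPCBP1 lines in 116 of the 342 genes and in 34 of the 98, more often than any other clone. Leaving it out gave counts of 1074 and 352, and leaving out any library can only keep or raise them.

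Chst11, which encodes a sulfotransferase that adds sulfate to chondroitin, showed the largest difference of the 440 genes. It was at 35.7, 62.4 and 34.8 CPM in CT clones 1 to 3 and at 24.4 CPM in the unaltered line. In the knockouts it ranged from 0.0429 CPM (LIFR KO clone 3) over a median of 0.479 CPM to 1.20 CPM (FAM3C KO clone 2). Every knockout was at least 4.24 log2 units below the lowest shPCBP1 line, the widest gap among the 31. The log2 fold change was -6.22 ± 0.605 (SE, limma adjusted p = 0.00342), with -5.65 in FAM3C KO and -6.80 in LIFR KO, and those did not differ from each other past the threshold (adjusted p = 0.278). Chst1, a sulfotransferase of keratan sulfate, was also below in all 6, at 12.0 to 29.8 CPM in shPCBP1 cells and 0.0429 to 5.89 CPM in knockouts, with a log2 difference of -4.15 ± 0.887 that did not pass (adjusted p = 0.167). The other 32 of 34 tested enzymes of the chondroitin and heparan sulfate list overlapped, and the list's median was -0.12. Over all genes 2.71% lay below.

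The promoter of Chst11 is printed because of this gap. The 250 bases before its RefSeq start (GRCm38.p6, chr10:82985247-82985496, plus strand) have a GC content of 70.0%. They hold no match to TTCNNNGAA, the palindromic core that STAT proteins bind, which reads the same on both strands. Zfp109, a zinc finger gene that was higher in the knockouts, was 1 of 19 called genes with a promoter in the RefSeq table and the single one whose promoter holds a match, and it is shown for contrast (chr7:24237599-24237848, minus strand). Capitals mark the match, which begins at position -129 from the start. A match of letters is a description and not a binding site.
Chst11: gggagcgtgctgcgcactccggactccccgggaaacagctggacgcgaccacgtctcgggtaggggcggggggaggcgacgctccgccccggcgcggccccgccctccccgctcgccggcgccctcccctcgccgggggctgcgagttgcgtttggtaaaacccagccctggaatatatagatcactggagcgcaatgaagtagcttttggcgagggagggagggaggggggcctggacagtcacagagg
Zfp109: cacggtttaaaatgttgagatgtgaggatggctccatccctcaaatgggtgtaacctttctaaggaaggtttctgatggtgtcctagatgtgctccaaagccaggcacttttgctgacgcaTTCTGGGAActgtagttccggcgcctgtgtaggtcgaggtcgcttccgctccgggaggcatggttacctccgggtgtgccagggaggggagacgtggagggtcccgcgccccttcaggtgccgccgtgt

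Over all members, 25 of the 271 lower genes with a promoter in the table held the motif (9.23%), as did 3 of 73 higher genes (4.11%), beside 713 of 9956 tested genes (7.16%) and 7.02% of all 32851 promoters listed.

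Regulators of transcription and chromatin were among the genes with the largest differences. Ebf1, a transcription factor of B cell and mesenchymal lineages, was at 10.6, 7.96, 13.3 and 1.93 CPM in the shPCBP1 lines, and at 0.0384 to 0.753 CPM (median 0.0483 CPM) in the knockouts. Only FAM3C KO clone 1 was above 0.1 CPM. The difference was -5.11 ± 0.635 (SE, limma adjusted p = 0.00973). Foxf1, a forkhead factor of mesenchyme, was at 3.48, 9.05, 12.9 and 2.56 CPM against 0.0400 to 0.161 CPM (median 0.131 CPM), with no knockout near the shPCBP1 range. Its difference was -4.78 ± 0.436 (SE, limma adjusted p = 0.00342). Smarca2, the BRM ATPase of SWI/SNF chromatin remodelers, was at 42.5, 29.0, 24.6 and 12.0 CPM in shPCBP1 cells. LIFR KO clone 1 stood apart from the other knockouts at 9.44 CPM, close to the unaltered line, and the other 5 were at 0.343 to 1.41 CPM. The difference of -4.42 ± 0.750 passed (limma adjusted p = 0.0575) but lost its call in 16 of 28 other settings. Tshz2, a zinc finger homeobox factor, was at 0.412 to 4.74 CPM in shPCBP1 cells and 0.0384 to 0.177 CPM in knockouts (log2 fold change -3.22 ± 0.549, limma adjusted p = 0.0575), a call lost in 16 of 27 other settings.

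A pair of further homeobox genes had no overlap without passing the test, and these were picked out after their values were seen. Irx3 was at 2.37 to 5.05 CPM in shPCBP1 cells, at 0.0384 to 0.0443 CPM in the FAM3C KO clones and at 1.82, 1.497 and 0.0429 CPM in the LIFR KO clones. Lhx2 was at 2.67 to 4.97 CPM against 0.0384 to 1.56 CPM. Their log2 differences were -3.41 and -2.91 (limma adjusted p = 0.275 and 0.211).

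Hox genes, which set positional identity along the body axis, gave the largest group of calls from 1 list. Of 21 tested, 4 passed, all lower (Hoxc4, Hoxc5, Hoxc6 and Hoxb13), 5 had no overlap, all lower (these and Hoxb6), and 16 overlapped, beside 0.222% called lower and 2.71% below over all genes, and the list's median was -0.56 beside -0.08 over all genes. The list was chosen with earlier results of these data known. Of the 4 called genes, 3 are Hoxc neighbours, and nothing is read from these counts. Hoxc6 was at 7.95, 6.14, 9.69 and 3.74 CPM in the shPCBP1 lines. In the knockouts it was at 0.177, 1.04 and 0.0384 CPM (FAM3C KO) and at 0.268, 0.166 and 0.214 CPM (LIFR KO), so that FAM3C KO clone 2 was the highest. The difference was -4.31 ± 0.503 (SE, limma adjusted p = 0.00834). Hoxc5 was at 1.17 to 3.81 CPM against 0.0416 to 0.360 CPM (-3.37 ± 0.419, limma adjusted p = 0.00973), and Hoxc4 at 0.970 to 5.01 CPM against 0.0443 to 0.720 CPM (-3.17 ± 0.565, limma adjusted p = 0.0657), a call lost in 20 of 27 other settings. In both, FAM3C KO clone 2 was again the highest knockout.

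The Hoxc genes are neighbours on chromosome 15 and some of their annotations overlap. In GENCODE M21, Hoxc5 spans chr15:102967443-103017429 and encloses Hoxc9, Hoxc8 and Hoxc6 (the last at chr15:102998257-103011881). Hoxc4 begins past the end of Hoxc5, at 103018934. If the gene models behind the counts were alike, reads of the enclosed genes may have been counted for Hoxc5 or the reverse. The other 3 listed Hoxc genes fell under the filter, and of these Hoxc13 and Hoxc8 also had every knockout below every shPCBP1 line (means of 0.683 and 0.535 CPM in shPCBP1 cells against 0.0524 and 0.0435 CPM), while Hoxc9 overlapped through FAM3C KO clone 2. Hoxb13, on chromosome 11, differed less at a higher level, at 10.1 to 13.7 CPM against 2.74 to 7.40 CPM (-1.35 ± 0.232, limma adjusted p = 0.0575), a call lost in 16 of 28 other settings. Hoxb6 was at 15.5 to 25.1 CPM against 9.18 to 14.97 CPM (-0.57 ± 0.173, limma adjusted p = 0.385).

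**Figure D2:**
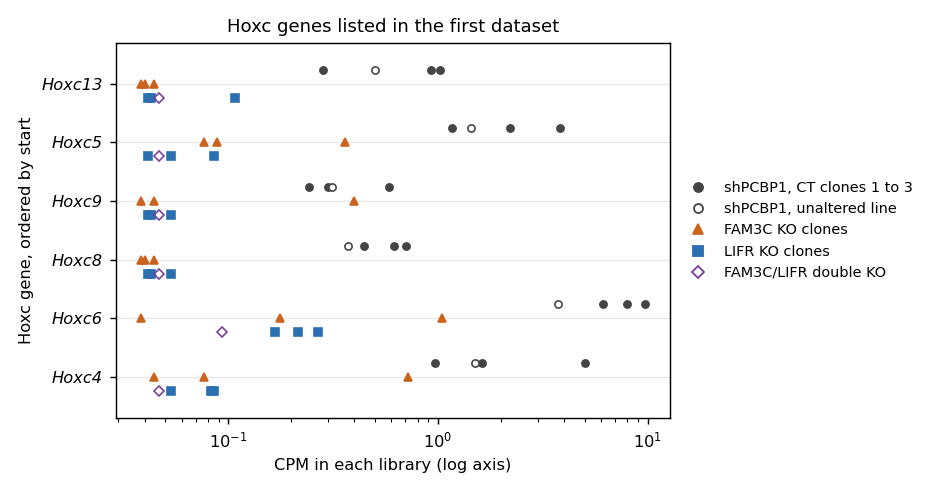
CPM on a log axis of the 6 listed Hoxc genes in each library, with shPCBP1 CT clones (filled circles), the unaltered line (open circle), FAM3C KO clones (triangles), LIFR KO clones (squares) and the double KO (diamonds). In 5 of the 6 genes no knockout reached the shPCBP1 range, and in Hoxc9 FAM3C KO clone 2 lay within it at 0.400 CPM.

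Further calls at low levels included genes of the cytoskeleton, the membrane and the synapse. Nav3, a neuron navigator that binds microtubules, was at 3.09, 2.83, 5.33 and 0.873 CPM in shPCBP1 cells and at 0.0384 to 0.129 CPM in knockouts (-4.10 ± 0.430, limma adjusted p = 0.00491). Arc, an immediate early gene best known from synapses, was at 10.7, 9.38, 10.1 and 5.24 CPM against 0.257 to 2.25 CPM (-3.44 ± 0.491, limma adjusted p = 0.0217). Its call was lost in 6 of 28 other settings, among them without CT clone 1, 2 or 3 (limma adjusted p = 0.0990, 0.107 and 0.103). In both genes the unaltered line was the lowest of the shPCBP1 lines. Slc25a48, a mitochondrial carrier, was at 1.90 to 3.48 CPM against 0.0384 to 0.480 CPM (-3.63 ± 0.405, limma adjusted p = 0.00659).

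The next 4 passed near the threshold and had shPCBP1 lines far apart. Dlg3, a membrane scaffold of the SAP102 type, was at 6.30 CPM in CT clone 2 and at 0.469 to 1.56 CPM in the other shPCBP1 lines, against 0.0384 to 0.125 CPM. Elapor2, an endosome-lysosome membrane protein, was at 6.38 CPM in CT clone 1 and 0.584 to 1.31 CPM in the others, against 0.0384 to 0.208 CPM. Piezo2, a mechanically gated channel, was at 0.889 to 4.73 CPM against 0.0831 to 0.440 CPM, and Gda, guanine deaminase, was at 0.849 to 4.02 CPM against 0.0429 to 0.333 CPM. Their log2 fold changes were -3.40, -3.24, -3.02 and -2.84 (limma adjusted p = 0.0560, 0.0575, 0.0560 and 0.0560), and they lost their call in 13, 18, 15 and 14 of 27 other settings.

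The 12 other lower genes that passed are outside the rule for named genes and are given because they complete the 28. Of these, 6 stayed at or below 3.31 CPM in every library (Fam167a, Gm609, Dok7, Ccdc187, Fam110b and Rhbdl2), with log2 fold changes from -2.80 to -1.97. The other 6 were Slc7a4, Tom1, Anxa8, Cldn2, Srd5a1 and Slc37a3. Among them was the most abundant called gene, Cldn2, which encodes claudin-2, a pore-forming protein of tight junctions. It was at 616, 450, 447 and 458 CPM in shPCBP1 cells and 279 to 339 CPM in knockouts, a difference of -0.62 ± 0.109 (limma adjusted p = 0.0657). Anxa8, an annexin, was at 61.2 to 80.7 CPM against 29.6 to 49.8 CPM (-0.93 ± 0.160, limma adjusted p = 0.0575). Srd5a1, steroid 5-alpha-reductase, was at 18 to 23.1 CPM against 12.3 to 14.6 CPM, and its shPCBP1 and knockout ranges were each narrow (-0.61 ± 0.103, limma adjusted p = 0.0575).

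Many of these differences end at the lowest value listed in a library. Of the 28 lower genes, 15 had at least 1 knockout at the lowest listed value of its library, and none had a shPCBP1 line there. Their log2 fold changes depend on the added 0.1 CPM.

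**Figure D3:**
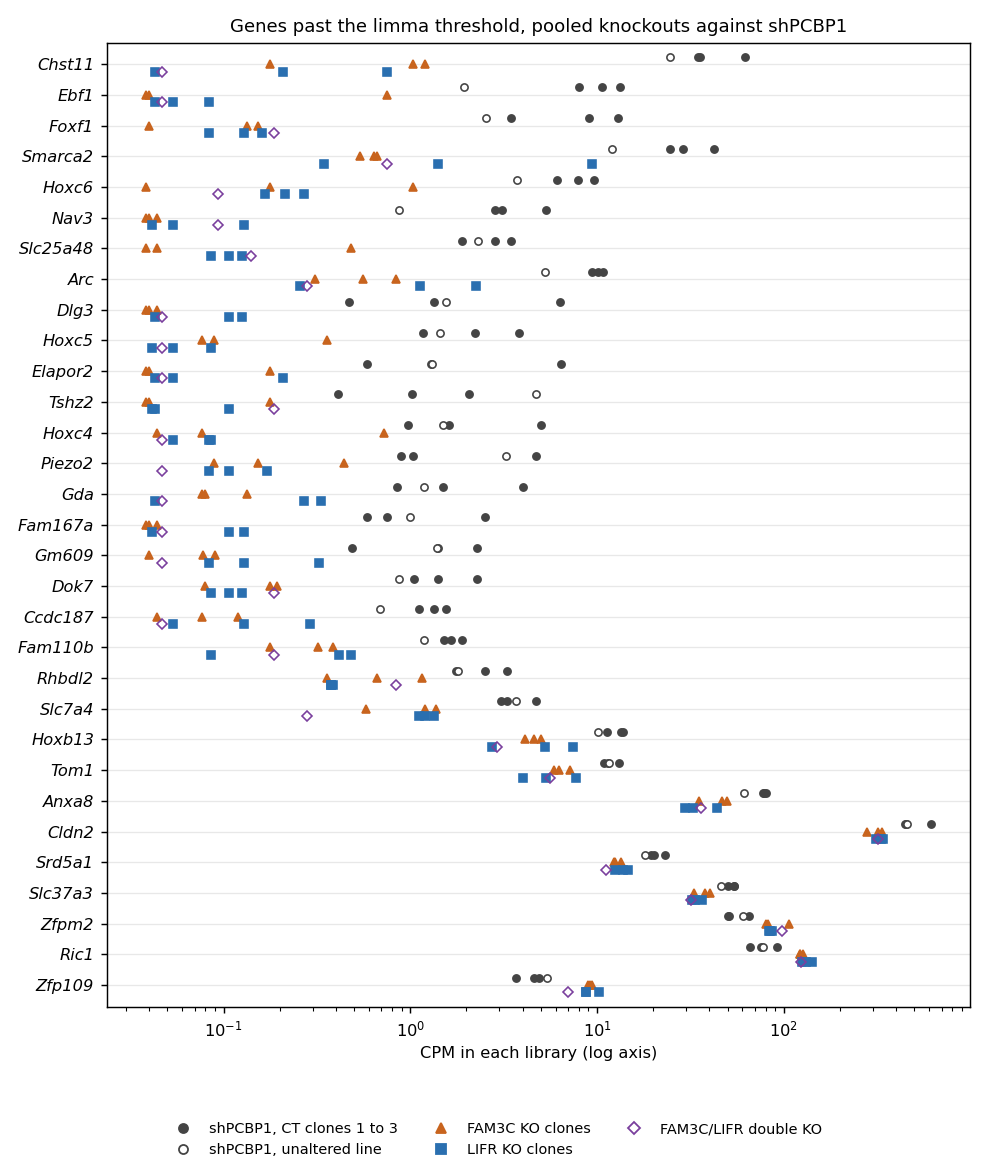
CPM on a log axis of the 31 genes past the limma threshold in each library, ordered by log2 fold change, with shPCBP1 CT clones (filled circles), the unaltered line (open circle), FAM3C KO clones (triangles), LIFR KO clones (squares) and the double KO (diamonds). The shPCBP1 lines lie to the right of all knockouts in 28 genes and to the left in Zfpm2, Ric1 and Zfp109, and LIFR KO clone 1 lies nearest to shPCBP1 in Smarca2 at 9.44 CPM.

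Only 3 genes were called higher. Zfp109 was at 4.88, 3.68, 4.60 and 5.43 CPM in shPCBP1 cells and at 8.69 to 10.2 CPM (median 9.06 CPM) in knockouts, with a log2 fold change of 0.98 ± 0.130 (SE, limma adjusted p = 0.0156). Ric1, part of an exchange factor complex for Rab6 at the Golgi, was at 66.0 to 92.4 CPM against 122 to 142 CPM (0.73 ± 0.0981, limma adjusted p = 0.0159). Zfpm2, also called FOG2, a cofactor of GATA factors, was at 50.5 to 64.8 CPM against 80.7 to 106 CPM (0.63 ± 0.108, limma adjusted p = 0.0575). In Zfp109 and Ric1 the 6 knockouts were close together, and in Zfpm2 FAM3C KO clone 2 stood above the rest. The call of Zfpm2 was lost in 22 of 28 other settings.

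The 12 further higher genes named by the rule had no overlap but did not pass. Gcnt1, which builds branched O-glycans, was at 8.81, 18.3, 7.83 and 17.1 CPM in shPCBP1 cells and at 23.1 to 56.6 CPM in knockouts, with LIFR KO clone 2 the highest (1.31 ± 0.304, limma adjusted p = 0.228). Itga2, integrin alpha-2, was at 88.4, 92.6, 53.01 and 115 CPM against 128 to 253 CPM (1.00 ± 0.224, limma adjusted p = 0.200). Cyp2c55, a cytochrome P450, was at 5.90 to 6.22 CPM against 6.65 to 34.5 CPM, where LIFR KO clone 1 was nearest to shPCBP1 cells. Foxa1, a pioneer factor of luminal mammary cells, was at 1.29 to 4.18 CPM against 4.42 to 11.2 CPM, and Adora2b, an adenosine receptor, at 0.437 to 0.661 CPM against 0.832 to 1.37 CPM. The remaining 7 (Pcdhb21, Mageb2, Eya1, Ttc12, Kif9, Sntb1 and Slc3a1) had log2 differences from 0.75 to 1.00, and adjusted p over the 12 ran from 0.200 to 0.440.

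Among transcription factors of EMT, 14 were tested, none passed, 3 had all knockouts below and 1 had them above (beside 2.71% and 0.776% of all genes), and the median was -0.04 beside -0.08 over all genes. Twist1, a driver of EMT, was at 1.41, 0.0808, 0.172 and 3.62 CPM in CT clones 1 to 3 and the unaltered line. All 6 knockouts were listed at the lowest value of their library (0.0384 to 0.0536 CPM), which happened in no other of the 342 genes. Against a floor of 3 such steps per library, the mean in shPCBP1 cells was at least 10.1-fold higher, and at least 4.24-fold higher without the unaltered line. CT clone 2 (0.0808 CPM) was itself under the mean floor of the knockouts (0.130 CPM), and CT clone 3 (0.172 CPM) was near it. The ratio thus rests on CT clone 1 and the unaltered line. The gene did not pass in the fit over all genes (limma adjusted p = 0.392). Snai3 was at 2.47 to 3.44 CPM against 1.41 to 2.40 CPM and Sox9 at 42.5 to 49.1 CPM against 16.4 to 41.8 CPM, with FAM3C KO clone 2 the nearest for Sox9. Zeb1, a repressor of E-cadherin, went the other way by a small amount, at 55.8 to 61.2 CPM against 62.1 to 81.7 CPM (0.16 ± 0.0936, limma adjusted p = 0.457). Its highest value was in FAM3C KO clone 2, whose median over chromosome 18, where Zeb1 lies, was 0.44. Twist2 overlapped (20.8 to 29.5 CPM against 5.59 to 33.1 CPM).

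Of 18 tested matrix proteases and their inhibitors, none passed and 2 had all knockouts below (beside 2.71% of all genes), with a list median of -0.35 beside -0.08. Mmp2, gelatinase A, was at 1.07, 5.54, 12.9 and 3.62 CPM in shPCBP1 cells and at 0.0384 to 0.686 CPM in knockouts (-3.45 ± 0.679, limma adjusted p = 0.114). Its lowest shPCBP1 line, CT clone 1, was close to LIFR KO clone 3. Mmp14, a membrane protease that activates MMP2, was at 45.2 to 53.8 CPM against 25.0 to 40.5 CPM (-0.57 ± 0.147, limma adjusted p = 0.303).

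Epithelial and mesenchymal genes showed few such patterns. Among 18 epithelial genes only Krt19, a luminal keratin, had no overlap (714 to 1011 CPM against 324 to 689 CPM, limma adjusted p = 0.412). It lay below, as did 2.71% of all genes, and the list's median was -0.30. Among 20 mesenchymal and matrix genes none passed, and the median was -0.12. Of 24 genes of mammary stem cells and self-renewal, Sox9 and Lgr4 were below and Itga2 above (beside 2.71% and 0.776% of all genes). The median was -0.23. None of these 3 lists held a called gene.

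The ligand list of the IL-6 family had 6 tested genes, among them Fam3a and Fam3c of the FAM3 family. None of these, of 4 receptors, 26 JAK-STAT relay genes and inhibitors or 24 response genes of STAT3 was free of overlap or passed. The shares over all genes were 3.49% and 0.246%. With shares this low over all genes, lists of this size would hold few such genes or none, and nothing particular to the pathway is read from the absence. The medians were -0.14, -0.29, -0.15 and -0.31. Stat3 was at 62.6 to 68.5 CPM in shPCBP1 cells and at 44.9 to 67.2 CPM in knockouts (-0.21 ± 0.120, limma adjusted p = 0.456). Socs3, an inhibitor induced by STAT3, was at 104 to 136 CPM against 54.2 to 114 CPM (-0.51 ± 0.210, limma adjusted p = 0.440), with the values under 60 CPM in LIFR KO clones 2 and 3. Il6st, the shared subunit gp130, was at 118 ± 4.38 CPM (SD, n = 4) against 119 ± 18.02 CPM (SD, n = 6). Osmr, the oncostatin M receptor, fell under the filter but lay below in every knockout, at 0.640, 0.202, 0.275 and 0.624 CPM against 0.0384 to 0.161 CPM. Myc, a growth regulator downstream of many pathways, was at 132 to 154 CPM against 84.7 to 174 CPM, and the groups overlapped widely.

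In the other lists, single genes were free of overlap. Tcf7l1, a repressor in WNT signaling, was at 1.13 to 1.81 CPM against 0.0429 to 0.912 CPM, Btg2, a p53 target, at 25.4 to 31.8 CPM against 16.1 to 23.1 CPM, and the proliferation genes Plk1 and Rrm2 at 103 to 115 and 207 to 243 CPM against 50.7 to 101 and 164 to 203 CPM. All 4 were lower in the knockouts and none passed. They were 1 of 11, 1 of 22 and 2 of 20 tested genes of their lists, beside 2.71% of all genes. The list medians were -0.46, -0.22 and -0.18. With counts this small, nothing particular to these lists is read from them. Hedgehog, TGF-beta and BMP, and interferon lists (8, 22 and 13 tested genes, medians -0.13, -0.03 and -0.12) held none. The 13 mitochondrially encoded mRNAs had a median of 0.47 and all overlapped. Of immune, endothelial, adipocyte and fibroblast markers, 2, 1, 1 and 2 were tested, none was free of overlap, and the fibroblast list summed to 2.82 to 4.74 CPM in shPCBP1 cells and 2.87 to 6.37 CPM in knockouts.

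The 2 kinds of knockout were then set against each other. Of the 342 lower genes, 16 differed between FAM3C KO and LIFR KO (limma adjusted p under 0.07), 15 of them higher in FAM3C KO, and of the 98 higher genes 2 did (Mageb2 and Cbwd1), beside 8.28% of all genes, and 6.83% in the direction of the 15. Taken alone, FAM3C KO differed from shPCBP1 cells in 0.309% of all genes and LIFR KO in 6.47%, and both share the 4 shPCBP1 lines. Among the lower genes were Cyp26b1, which breaks down retinoic acid (-0.80 in FAM3C KO, -1.60 in LIFR KO), and P4ha2, a collagen prolyl hydroxylase (-0.46 and -1.54). Sp6 was the 1 exception (-2.83 and -0.81). Mageb2 was at 1.55, 1.44 and 2.77 CPM in FAM3C KO and at 0.644, 0.749 and 0.772 CPM in LIFR KO, against 0.437 to 0.640 CPM in shPCBP1 cells. None of the 31 called genes was among the 18. The 440 were chosen for lying on one side in both knockouts, and the pooled fit counts a gap between the knockouts as spread. Few differences among these genes were thus partly built into the choice, and nothing is read from the low counts. The count of 18 rested on single libraries. It was 205 without LIFR KO clone 1, 3 without clone 2 and 28 without clone 3, beside 52.9%, 0.8% and 11.6% of all genes, so that the share of all genes moved with it. It was 6 to 8 with 1 shPCBP1 line left out, and 0 with 1 FAM3C KO clone left out in limma, where 53, 75 and 55 of the 440 had an unadjusted p under 0.05 without FAM3C KO clone 1, 2 or 3. With 3 clones a side, a missing difference does not show that the knockouts act alike.

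Position set some of these genes apart. Of the 15 lower genes that were higher in FAM3C KO than in LIFR KO, 9 lie on chromosome 15, which also carries Lifr and the Hoxc genes. Across all tested genes on that chromosome (494), 192 of the 862 calls of this direction were found. The median deviation of chromosome 15 from the shPCBP1 mean was -0.40, -0.88 and -0.35 in LIFR KO clones 1 to 3, against -0.01, -0.23 and -0.20 over the other chromosomes, and -0.01 to 0.06 in the FAM3C KO clones. In clone 1, which had no GC trend, and in clone 2, no other chromosome had a lower median. In clone 3 the medians of chromosomes 7, 8, 11, 17 and 19 were lower still. On chromosome 18 the median of FAM3C KO clone 2 was 0.44, against -0.01 and -0.003 in FAM3C KO clones 1 and 3. Among the 494 genes, 23 had all knockouts below shPCBP1 cells (4.66%, against 2.63% over the other chromosomes together). Chromosome 17 was close to this, with 27 of 630 genes (4.29%). Of the 31 called genes, 5 were on chromosome 15 (Hoxc4, Hoxc5, Hoxc6, Arc and Zfpm2), beside 494 of the 12621 tested genes. The 3 Hoxc genes among them are neighbours, and nothing is read from this count. When each library was centred on the median of each chromosome, a setting chosen after seeing the data, 27 of the 31 kept their call, Hoxc5 and Hoxc6 among them (limma adjusted p = 0.0120 each), and Arc, Hoxc4 and Zfpm2 did not. Their log2 fold changes in that setting, -3.18, -2.91 and 0.88 (limma adjusted p = 0.0872, 0.122 and 0.172), stood beside -3.44, -3.17 and 0.63 without it. With the GC correction before it, 1 of the 440 genes still differed between the 2 knockouts, beside 0.992% of all genes.

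**Figure D4:**
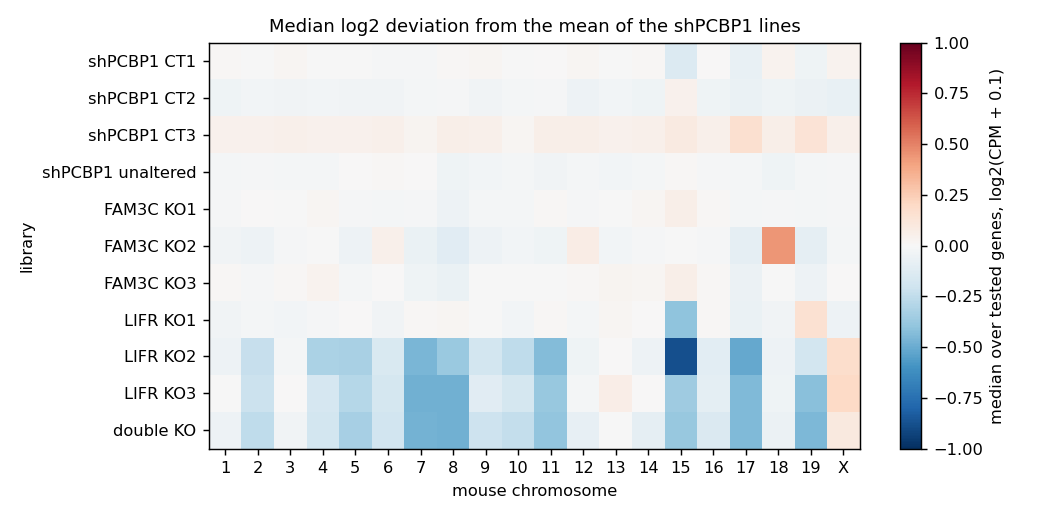
Median log2 deviation of each library (rows) from the mean of the 4 shPCBP1 lines over the tested genes of each mouse chromosome (columns), on log2(CPM + 0.1), with red above and blue below. Chromosome 15 is at -0.88 in LIFR KO clone 2 and -0.40 in clone 1, chromosome 18 is at 0.44 in FAM3C KO clone 2, and LIFR KO clones 2 and 3 and the double KO are lower on many chromosomes.

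The double KO, which played no part in the choice of genes, was below all 4 shPCBP1 lines in 337 of the 342 lower genes, beside 53.8% of all genes, and above them in 87 of the 98 higher genes, beside 26.0%. It was on the same side in all 31 called genes. The 5 lower genes in which it lay within the shPCBP1 range were Clip4, S100a2, Frmd4b, Casq1 and Tatdn3, and among the 11 exceptions on the higher side were Foxa1 and Ttc12. After the GC correction it was below in 285 of the 342 (background 35.1%). This is 1 sample that shares the controls and the GC trend, so the counts carry no test.

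The second dataset shows how the same genes stand in its own NMuMG and shPCBP1 cells. Levels in shPCBP1 cells were not alike in the 2 datasets for every gene, and the gene models behind the 2 may differ. Lifr was at 28.4 CPM in the unaltered line of the first and at 2.94 and 2.40 CPM in the second. Smarca2 was at 12.0 CPM against 2.17 and 2.11 CPM. Others were closer, such as Anxa8 at 61.2 CPM against 54.4 and 55.5 CPM. Of the 342 lower genes, 305 were also tested there, and 64 were higher in shPCBP1 than in NMuMG cells (21%, beside 16.1% of all matched genes; limma adjusted p under 0.07 and a fold of at least 1.5) and 42 lower (13.8%, beside 14.3%). Of 84 higher genes, 11 were higher in shPCBP1 (13.1%, beside 16.1%) and 17 lower (20.2%, beside 14.3%). These shares were not far from those over all matched genes, which themselves were more often higher in shPCBP1. No test was made of them, and nothing is read from them. Some lower genes passed the filter only through their shPCBP1 lines, so expression in shPCBP1 cells was partly built into the choice.

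Of the 18 called lower genes with a test there, 10 were higher in shPCBP1 cells, 5 lower and 3 not called. Over all matched genes the shares were 16.1% higher and 14.3% lower. Several of the 18 passed the filter of 0.5 CPM only through the shPCBP1 lines (knockout means of 0.117 CPM in Foxf1 and 0.0663 CPM in Dlg3). Their expression in shPCBP1 cells was thus part of the choice, and nothing is read from these counts. Chst11 was listed at 0.0001 and 0.0190 CPM in NMuMG and at 28.2 and 28.0 CPM in shPCBP1 cells. Neither NMuMG sample had Foxf1 above the lowest listed value, and it was at 3.41 and 3.38 CPM in shPCBP1 cells. Arc was at 0.106 and 0.132 against 2.80 and 2.73 CPM. Cldn2 was at 355 and 347 CPM against 748 and 743 CPM. The opposite direction was seen in Ebf1 (2.81 and 2.45 CPM in NMuMG, 0.609 and 0.721 CPM in shPCBP1), Smarca2 (4.80 and 5.39 against 2.17 and 2.11 CPM), Tshz2, Gm609 and Hoxb13. Hoxc6 fell under the filter, at 0.0178 and 0.0378 CPM in NMuMG and 0.914 and 0.776 CPM in shPCBP1 cells. Of the genes that were not called in the knockouts, Mmp2 was listed at the lowest value in NMuMG and at 2.17 and 2.37 CPM in shPCBP1 cells, and Lifr at the lowest value and at 2.94 and 2.40 CPM. The depth behind this dataset was not worked out here, and its 2 samples a group show little spread.

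**Figure D5:**
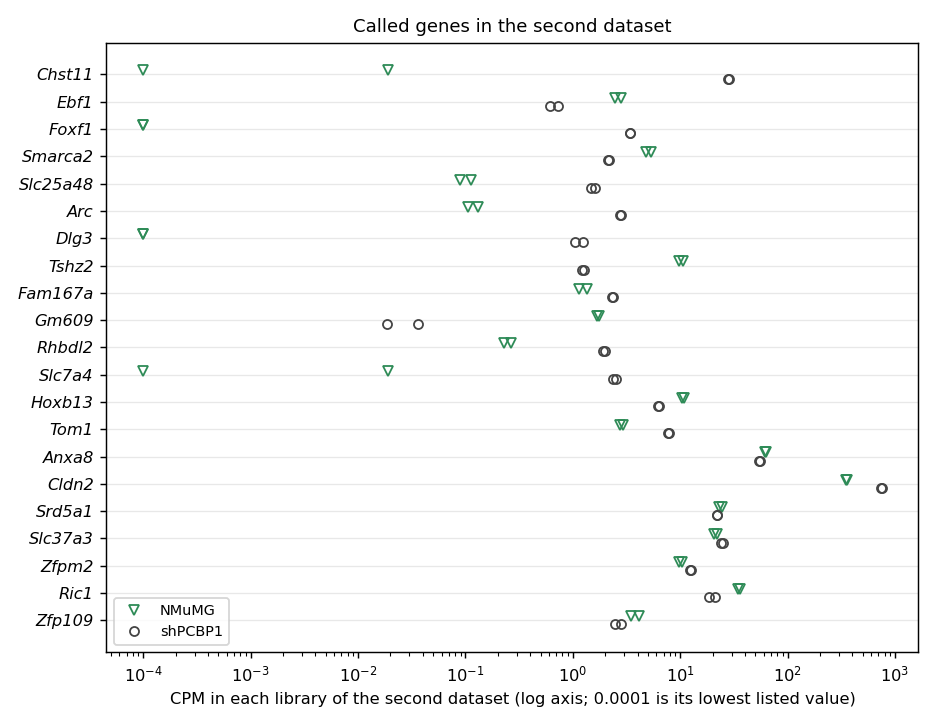
CPM on a log axis of the called genes in the second dataset, for the 2 NMuMG samples (green triangles) and the 2 shPCBP1 samples (grey circles), where 0.0001 is the lowest listed value. Chst11 is at 28.2 and 28.0 CPM in shPCBP1 cells and at or below 0.0190 CPM in NMuMG cells, and Ebf1, Smarca2, Tshz2, Gm609 and Hoxb13 lie the other way.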

How the data were processed

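The authors deposited CPM per gene and sample for both datasets. The study describes rRNA-depleted, directional libraries, processed with Partek Flow and Bowtie2 on GRCm38. The second dataset also holds deposited mean CPM columns and a ratio (fold) of group means, which were not used. The members and the gene lists were chosen with earlier results of these data known.

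Genes averaging 0.5 CPM or more over the 10 libraries were tested on log2(CPM + 0.1) with limma 3.58.1 (R 4.3.3, mean-variance trend) and Benjamini-Hochberg adjustment over all tested genes, at adjusted p under 0.07, and 3 group means gave the contrasts of each knockout. CPM are not counts, so no count test was used. The share of values that were whole multiples of the lowest value (tolerance 0.05), 0.833 to 0.848 per library, was too low to recover reads. Figures were drawn with matplotlib 3.10.9 (Python 3.11.15).

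Named genes were the 15 of largest absolute log2 fold change in each direction among genes with no overlap, an adjusted p under 0.07 and at least 1 CPM in a group, filled up where fewer passed by genes with no overlap and any p, plus list members with no overlap and 11 single genes. Some genes that the rule names are not reported here. Gene positions come from GENCODE M21, because starts in the first dataset matched it for 302 of 13870 genes only. In the second dataset 14269 of 14795 starts matched, so the gene models of the 2 datasets may differ. Promoters come from RefSeq, and guides come from the study's supplementary tables. GC correction used a loess of span 0.3. The script was tested on simulated data. Alternatives covered scaling, pseudocount, filter, GC content, left-out libraries, threshold, block and chromosome centring.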

Additional observations from a re-analysis of the deposited data

Results flagged for a closer look

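Of 108 groups of 4 or 6 libraries examined for the 54 named genes, 13 held a library whose distance from the rest took up most of the range of its group. The cut-offs give such a library in about 1 of 20 groups of independent normal values. Most of the named genes were chosen by the values of these same libraries, and some values are the lowest listed. That rate therefore does not apply here, and the 13 are a description. FAM3C KO clone 2 accounted for 8 of the 13. It was the highest knockout in Slc25a48 (0.480 CPM), Hoxc5 (0.360 CPM), Hoxc4 (0.720 CPM), Piezo2 (0.440 CPM), Zfpm2 (106 CPM), Foxa1 (11.2 CPM) and Zeb1 (81.7 CPM), and the lowest in Lgr4 (21.3 CPM). Piezo2 and Zeb1 lie on chromosome 18, where the median deviation of this clone was 0.44, and the part of that shift in the values was not tested.

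The other 5 were Ebf1 in FAM3C KO clone 1 (0.753 CPM), Nav3 in LIFR KO clone 3 (0.129 CPM), Gcnt1 in LIFR KO clone 2 (56.6 CPM), Foxa1 in CT clone 2 (1.29 CPM) and Myc in CT clone 3 (132 CPM). Mageb2 was set apart by a difference between the 2 knockouts, with FAM3C KO above LIFR KO by 1.24 ± 0.303 on the log2 scale (SE, limma adjusted p = 0.0469).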

How the results depend on the processing

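The 31 calls became 11 with quantile normalization, 7 with a filter of 2 CPM, 20 without LIFR KO clones 2 and 3, 12 without the unaltered line, 55 with 3 group means, 14 at an adjusted p under 0.05, 816 for LIFR KO alone and, in settings chosen after seeing the data, 292 without LIFR KO clone 1 and with the GC correction. Leaving out 1 library gave 11 to 39 calls. Clone numbers did not pair the samples (correlations of -0.188 to 0.154), and the replicate block left 5 calls, with the unaltered line left out.

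The count of genes below (342) became 562 without the unaltered line, 1583 for FAM3C KO alone, 1667 for LIFR KO alone and 773 without LIFR KO clone 1 and with the GC correction, and ran from 369 to 1074 with 1 library left out. The count above (98) became 243 with rescaling, 245 with quantile normalization, 258 with the GC correction, 258 without LIFR KO clones 2 and 3, 170 without the unaltered line, 1279 for FAM3C KO alone, 499 for LIFR KO alone, 434 without LIFR KO clone 1 and with the GC correction, 247 with chromosome centring and 301 with both corrections, the last 3 chosen after seeing the data, and ran from 110 to 352 with 1 library left out. Fewer libraries make the condition easier to meet. The cause of the other changes was not tested.

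Of the named genes, 4 changed sign in some setting, none with a call. Fam3c was at 0.01 (log2) for LIFR KO alone and Pcbp1 at 0.021 without LIFR KO clones 2 and 3. Il6st was at 0.081 with rescaling, 0.035 with quantile normalization, 0.044 with the GC correction, 0.053 without LIFR KO clones 2 and 3, 0.129 for FAM3C KO alone, 0.078 without LIFR KO clone 1 and with the GC correction, 0.025 with both corrections and -0.038 to 0.078 with 1 library left out. Myc was at 0.014 with the GC correction, 0.116 without LIFR KO clones 2 and 3, 0.13 for FAM3C KO alone, 0 without LIFR KO clone 1 and with the GC correction, 0.117 with chromosome centring and 0.154 with both corrections.

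Genes near the lowest listed value of a library are limited by depth, and 1 RNA sample per line gives no spread within a clone.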
